A study of Mus musculus with 8 samples.

Results

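The neuronal splicing regulators described here are 10 RNA-binding protein genes taken by name, as known regulators of splicing in neurons, by a rule that uses no measured value: Rbfox1, Rbfox2 and Rbfox3, Nova1 and Nova2, Elavl2, Elavl3 and Elavl4, Mbnl2, and Celf2. No measured value enters the rule, but the choice was made with earlier results of these data known. All 10 were found among the 15519 genes of the deposited table. Their RNA was measured in nuclei of hippocampal pyramidal cells from WT mice, in 4 libraries of Recurring place cells and 4 libraries of Day 0 place cells. Place cells are neurons that fire at particular locations; here they were identified by two-photon imaging during navigation, and their nuclei were tagged with light and collected. The labels do not define Recurring and Day 0 further, each title names its own mouse, and the age, sex and batch of the animals and the number of nuclei a library held are not given in the sources used here. All animals share the WT genotype, and no treatment is listed.

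Splicing regulators of this kind bind short sequence elements in and around alternative exons of pre-mRNA, and the position of the bound element largely decides whether an exon is kept or skipped. Rbfox proteins bind UGCAUG, Nova proteins bind clusters of elements such as UCAU, and neuronal Elavl (Hu) proteins bind U-rich stretches and also act on the stability of cytoplasmic mRNA. Muscleblind-like (Mbnl) and Celf proteins often act in opposite directions on the same exons. The values below are gene-level RNA and hold no measurement of exon use.

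Over the genes of the deposited table, the libraries held 8613854 to 14887866 reads in Recurring cells and 8374986 to 11789782 in Day 0 cells. Each of these genes had reads in 3 or more libraries, and the numbers of genes detected given below count genes of that table only. Values are normalized counts, that is, whole reads recovered from the deposited signal and divided by a size factor per library, which ranged from 0.837 to 1.61. Of 14 CA1 pyramidal markers 13 were in the table. Their summed normalized count was 33301 to 51466 in Recurring libraries and 34476 to 44653 in Day 0 libraries, and Pou3f1, in Day 0 replicate 4, was the 1 CA1 marker at 0 reads in any library. Markers of other cells were also read. The astrocyte sum was 2654 to 20798 in Recurring and 3305 to 5469 in Day 0 libraries, and the interneuron sum was 914 to 11628 in Recurring and 248 to 2647 in Day 0 libraries. The microglial sum was 507 to 6056 in Recurring and 213 to 707 in Day 0 libraries, and the oligodendrocyte sum 1457 to 7661 in Recurring and 1559 to 12183 in Day 0 libraries. For oligodendrocyte precursors it was 939 to 1625 in Recurring and 311 to 2786 in Day 0 libraries. Both of these Day 0 extremes, in replicates 3 and 4, came from 1 marker, with Vcan, Olig1 and Olig2 at 0. For endothelial cells it was 0 to 548 in Recurring and 114 to 489 in Day 0 libraries. For dentate granule cells it was 1522 to 5367 in Recurring and 1756 to 3204 in Day 0 libraries. The granule sums of Recurring replicate 1 and Day 0 replicate 3, 4255 and 3118, came from 1 marker, with Prox1, C1ql2 and Tdo2 at 0. In bulk libraries of this kind, fewer cells of a type and less RNA per cell cannot be told apart.

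The comparison asked whether RNA of these regulators differed between Recurring and Day 0 place cells. No member passed the threshold: by limma with Benjamini-Hochberg adjustment over all 11078 genes tested, 0 of the 10 had an adjusted p under 0.05, and their adjusted p ran from 0.981 to 0.998. Over all genes tested the share called was 0%. In mean level 6 members were higher and 4 lower in Recurring cells, with a median log2 difference of 0.18, where all tested genes were 5553 higher and 5525 lower with a median of 0.00500. At an unadjusted p under 0.05 there was 1 member, Nova2, lower in Recurring cells, where 1.74% of tested genes passed in that direction, 1.88% as higher and 3.62% in either. The groups were free of overlap for 0 of the 10 members, against 2.41% of tested genes, made up of 1.24% higher and 1.17% lower in Recurring cells.

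**Figure D1:**
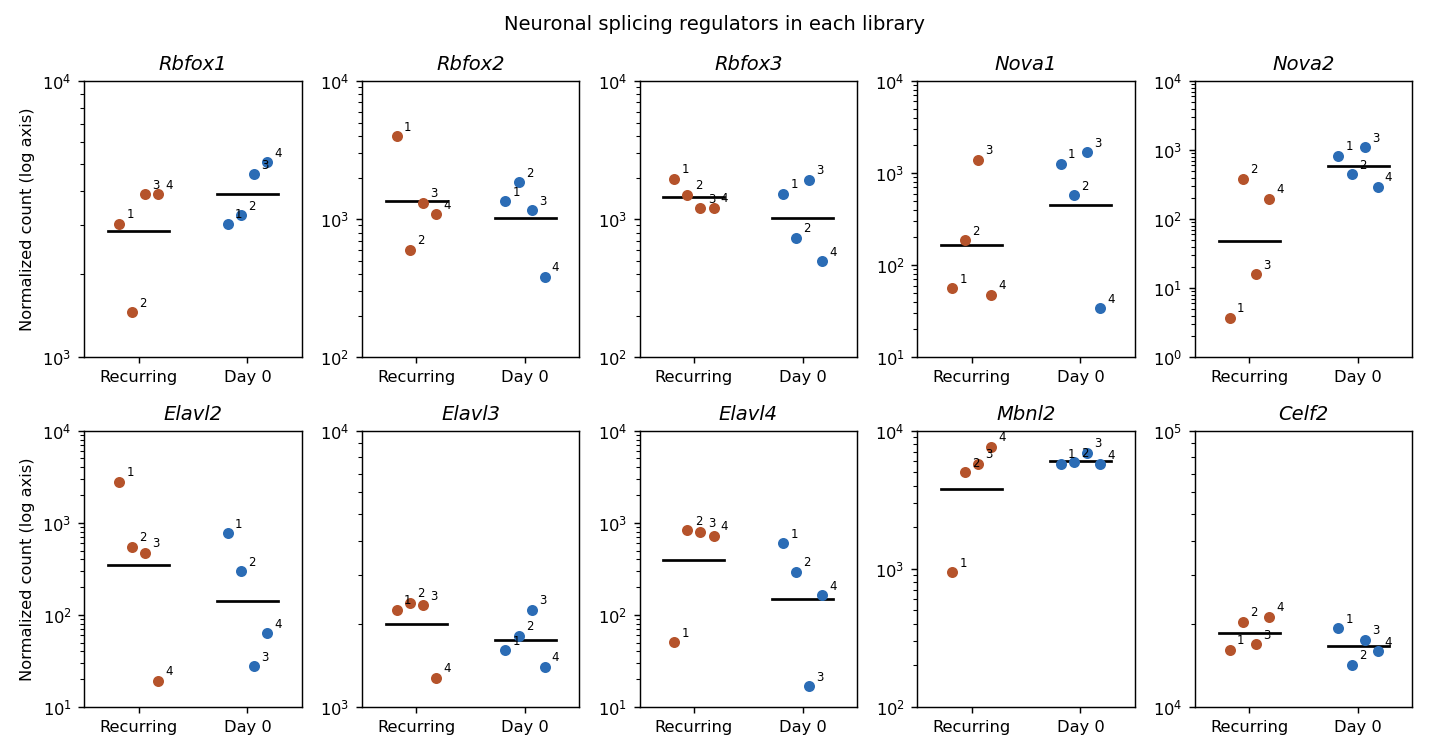
Normalized count (log axis) of each regulator in the 4 Recurring and 4 Day 0 libraries; each point is a library, the digit beside it its replicate number, and the bar the mean on the log2 scale; the axis range differs between genes. The groups overlap for all 10 genes, and Celf2 is tightly grouped where Nova2 and Elavl2 are spread over a wide range among Recurring libraries.

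Rbfox1, a splicing factor of neurons, heart and muscle, stood at normalized counts of 3046, 1456, 3895 and 3893 in Recurring replicates 1 to 4, against 3044, 3263, 4594 and 5076 in Day 0 replicates 1 to 4. Recurring replicate 2 was the lowest library and Day 0 replicate 4 the highest, and the other 3 Recurring libraries lay within the Day 0 range. The log2 difference, Recurring minus Day 0, was -0.45 (SE 0.41, 95% interval -1.30 to 0.41). With 1 library left out in turn it lay between -0.60 and -0.12, nearest to 0 without Recurring replicate 2, and with library weights it was -0.20.

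Rbfox2, the most widely expressed gene of the family, stood at 3966, 599.8, 1310.4 and 1082 in Recurring cells, against 1348, 1849, 1162 and 382 in Day 0 cells. Recurring replicate 1 was far above the rest, and without it the difference of 0.40 (SE 0.68) changed sign, to -0.13. It also changed sign without Day 0 replicate 4, the lowest library, to -0.07. Day 0 replicate 4 was the lowest library for Rbfox2, Rbfox3 and Nova1 and the highest for Rbfox1; it had the highest oligodendrocyte marker sum, 12183, with Mog and Mal at 0, and the fewest genes detected, 10718. The part of these in the values was not tested. No direction can therefore be read for Rbfox2. Recurring replicate 1 also had the highest astrocyte marker sum, 20798, with reads of 12 of 12 markers in the table; the part of this in the Rbfox2 value was not tested.

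Rbfox3, the gene of the NeuN antigen that marks mature neurons, stood at 1962, 1501, 1203 and 1210.4 in Recurring cells, against 1526, 734, 1926 and 494 in Day 0 cells. The Recurring libraries lay within a range of 1.63-fold and the Day 0 libraries within 3.90-fold. On the log2 scale Rbfox3 was at 10.49 ± 0.33 in Recurring and 9.99 ± 0.91 in Day 0 cells (SD, n = 4 each), a difference of 0.50 (SE 0.58, 95% interval -0.72 to 1.72). It was 0.16 without Day 0 replicate 4 and 0.81 without Day 0 replicate 3.

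Nova1 and Nova2 encode KH-domain proteins first known as antigens of a human paraneoplastic movement disorder. Nova2, the family member that predominates in forebrain cortex, stood at 3.72, 386, 15.9 and 197 in Recurring replicates 1 to 4, against 831, 443, 1105 and 297 in Day 0 replicates 1 to 4. The lower counts in Recurring replicates 1 and 3 rested on 6 and 15 reads, where the Day 0 libraries held 296 to 1117 reads. The groups overlapped, since Recurring replicate 2 was above Day 0 replicate 4. The log2 level was 5.63 ± 2.98 in Recurring and 9.21 ± 0.86 in Day 0 cells (SD, n = 4 each). The difference was -3.57 (SE 1.57, 95% interval -6.89 to -0.25), and limma gave an adjusted p of 0.981 (0.0367 before adjustment), so it did not pass. This was the 1 member whose interval left out 0, and the interval ran over a wide range, 0.00841 to 0.842 as a fold of the Day 0 level.

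With 1 library left out in turn, the Nova2 difference lay between -4.56 and -2.45 and its unadjusted p was under 0.05 in 3 of 8 cases, those without Recurring replicate 2, Recurring replicate 4 or Day 0 replicate 4. The smallest size came without Recurring replicate 1, at an unadjusted p of 0.0704 by limma. That library also had the highest astrocyte marker sum, 20798; the part of this in the Nova2 value was not tested. In the mouse annotation GENCODE vM21, a lincRNA gene on the opposite strand, Gm26821, covers 31.7% of the exonic bases of Nova2. Whether the counting used strand is not given in the sources used here, so reads of the overlapping stretch cannot be assigned with certainty. For Celf2 such an opposite-strand gene, Gm26565, covers 7.58% of exonic bases, and for Mbnl2 Gm26679 covers 0.717%. Genes on the same strand, which strand would not separate, cover 3.54% of exonic bases of Nova1 (Gm33869) and 3.72% of those of Elavl3 (Gm49318).

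Nova1 stood at 56.4, 187, 1393 and 47.7 in Recurring cells, against 1259, 577, 1679 and 34.1 in Day 0 cells. Both groups held libraries at high and at low counts, and the spread within each group, an SD of 2.23 log2 units in Recurring and 2.55 in Day 0 cells, was larger than the difference between them of -1.47 (SE 1.42, 95% interval -4.47 to 1.54). Without Day 0 replicate 4, the lowest library, the difference was -2.70, at 0.0372 before adjustment and not past the adjusted threshold by limma, while without Day 0 replicate 3, the highest, it was -0.84, at 0.621, and without Recurring replicate 4 it was -0.88. High and low Nova1 libraries were not the same as those of Nova2: Recurring replicate 3 had 1393 for Nova1 and 15.9 for Nova2, and Day 0 replicate 4 had 34.1 for Nova1 and 297 for Nova2.

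The neuronal Elavl genes, known as HuB (Elavl2), HuC (Elavl3) and HuD (Elavl4), encode RNA-binding proteins with RNA recognition motifs that are used as early markers of neurons. Elavl3 was the steady gene of the family. It stood at 2250.1, 2386, 2334 and 1276 in Recurring cells, against 1604, 1813, 2251 and 1399 in Day 0 cells. Recurring replicates 1 to 3 were close to the highest Day 0 library and Recurring replicate 4 was below all of them. The log2 difference was 0.20 (SE 0.45, 95% interval -0.74 to 1.15), and between 0.10 and 0.42 with 1 library left out in turn.

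Elavl2 varied far more, at 2797, 552, 476 and 19.3 in Recurring cells, against 768, 299.8, 27.5 and 63.1 in Day 0 cells. The highest and the lowest library were both Recurring, a range of 145-fold within that group. The difference was 1.29 (SE 1.56, 95% interval -2.01 to 4.58), which was 0.27 without Recurring replicate 1 and 2.66 without Recurring replicate 4. Elavl4, whose protein in neurons binds and stabilizes mRNAs such as that of Gap43, stood at 50.2, 828, 786 and 721 in Recurring cells, against 604, 293, 16.7 and 163 in Day 0 cells. Recurring replicates 2 to 4 were above every Day 0 library, and Recurring replicate 1 was below 3 of the 4. The difference was 1.38 (SE 1.38, 95% interval -1.53 to 4.30), and without Recurring replicate 1 it was 2.35, while without Day 0 replicate 3 it was 0.35. Elavl2 was thus at its highest in the Recurring library where Elavl4 was at its lowest for that group.

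Mbnl2, the muscleblind-like gene most studied in brain, encodes a zinc-finger splicing factor that is sequestered by expanded CUG repeats in human myotonic dystrophy. It stood at 946, 4997, 5777 and 7655 in Recurring cells, against 5769, 5916, 6912 and 5737 in Day 0 cells. The Day 0 libraries lay within 1.20-fold of each other, and of Recurring replicates 2 to 4 the counts were below, within and above that range. Recurring replicate 1 stood apart, and without it the difference of -0.67 (SE 0.50, 95% interval -1.74 to 0.39) was -0.02, while without Recurring replicate 4 it was -1.01. Recurring replicate 1 is the library with the highest astrocyte marker sum. It also had the most reads, 14887866, and the highest CA1 marker sum, 51466. Its number of genes detected was 10904, where the libraries ran from 10718 to 13807. The part of these in the Rbfox2, Nova2, Mbnl2, Elavl2 and Elavl4 values was not tested either.

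Celf2, a splicing and translation regulator that binds GU-rich RNA, had the largest normalized counts of the 10 and the smallest standard error of the difference; within Day 0 cells Mbnl2 was spread less. It stood at 16109.8, 20339.9, 16864 and 21193 in Recurring cells, against 19241, 14239, 17500.5 and 15874 in Day 0 cells. On the log2 scale this was 14.18 ± 0.20 in Recurring and 14.02 ± 0.19 in Day 0 cells (SD, n = 4 each). The difference was 0.16 (SE 0.21, 95% interval -0.29 to 0.60), so the Celf2 level in Recurring cells lay between 0.816 and 1.52 times that in Day 0 cells at 95% confidence. With 1 library left out in turn the difference lay between 0.08 and 0.21. Its interval was the 1 among the members to lie within 1 log2 unit of 0, as did those of 219 of all tested genes, or 1.98%. Recurring replicate 4 was the highest library for Celf2 and Mbnl2 and the lowest for Elavl2 and Elavl3. That library had the highest microglial marker sum, 6056, with reads of 5 of 5 markers in the table. The part of this in the values of these genes was not tested.

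**Figure D2:**
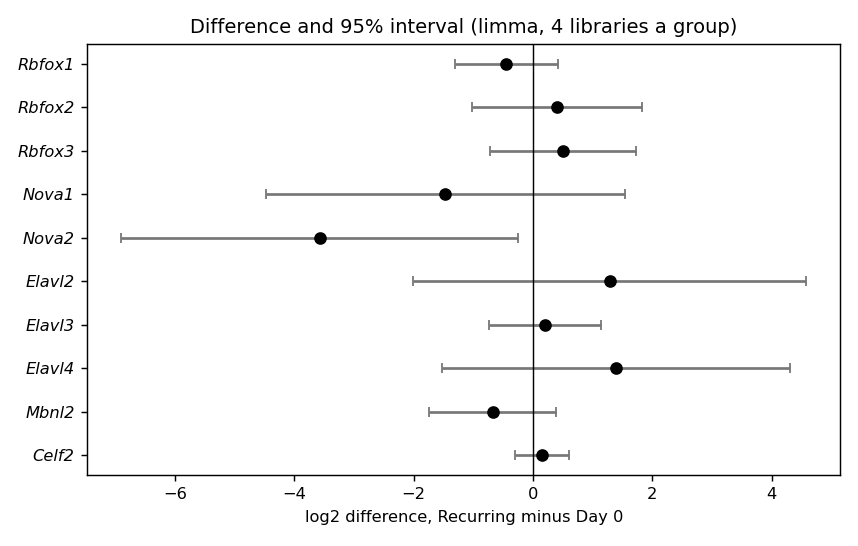
log2 difference, Recurring minus Day 0, of each regulator from limma, with its 95% interval, over 4 libraries a group. The Nova2 interval of -6.89 to -0.25 is the 1 that leaves out 0, before any adjustment over the genes tested, and the Celf2 interval of -0.29 to 0.60 is the narrowest.

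Precision divided the members into separate ranges. The standard error of the difference was 0.21 to 0.68 log2 units for Celf2, Rbfox1, Elavl3, Mbnl2, Rbfox3 and Rbfox2, and 1.38 to 1.57 for Elavl4, Nova1, Elavl2 and Nova2. All 10 were below the median standard error of tested genes, 1.78. All 10 also had reads in each of the 8 libraries, where 45.6% of tested genes had 1 or more libraries without a read. The fit lets the variance follow the mean, and mean levels divided the members the same way. In the narrower range, 87.1% (Rbfox2) to 99.9% (Celf2) of tested genes had a lower mean than the member. In the wider range it was 51.6% (Nova2) to 60.3% (Nova1). The part of level in these standard errors was not tested. For the wider range a 95% interval held folds as far apart as 0.249 and 23.9 (Elavl2) or 0.346 and 19.7 (Elavl4), so differences of several fold in Elavl2, Elavl4 and Nova1 were not detectable with these libraries.

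**Figure D3:**
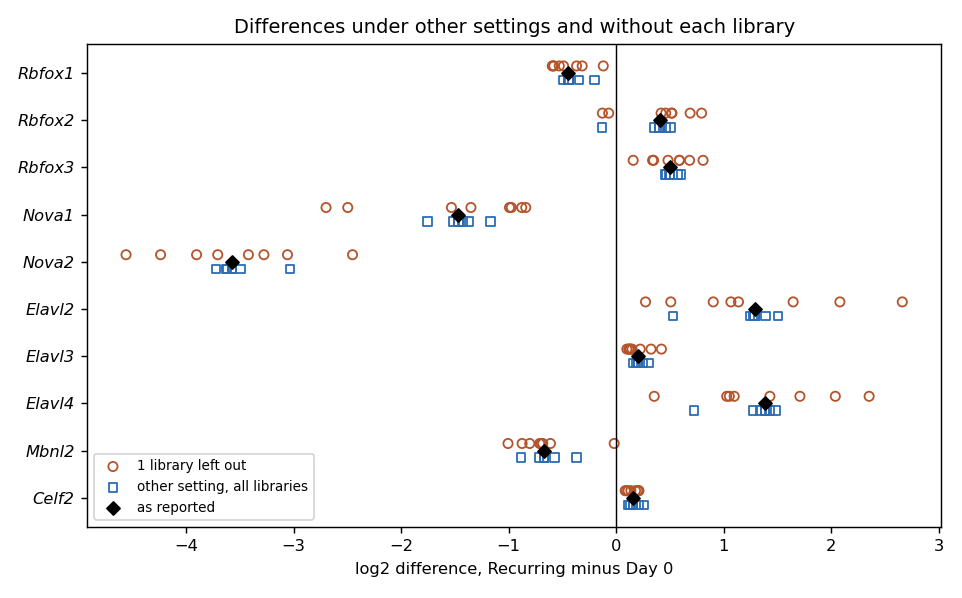
log2 difference, Recurring minus Day 0, of each regulator as reported (diamond), with 1 of the 8 libraries left out (circles) and under other processing settings with all libraries (squares). Values change sign for Rbfox2 alone, while the Mbnl2 difference reaches -0.02 and the Elavl2 difference 0.27 without Recurring replicate 1.

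To set levels of different genes side by side, normalized counts were divided by exonic length in GENCODE vM21. This length is that of all annotated exons of a gene, merged over its transcripts. The lengths of the transcripts present in these nuclei were not measured, so the order below holds for the merged length only. The order and the family shares also take reads as counted over exons and not over whole gene bodies, which was not checked. Over the 8 libraries Rbfox1, with 4.40 kb of exons, was highest at 803 ± 252 per kb (SD), then Celf2 at 683 ± 92.5, although Celf2 has more reads, since its exons span 25.9 kb. Rbfox1 was above Celf2 in 6 of 8 libraries and Celf2 above Mbnl2 in 8 of 8. Mbnl2 stood at 456 ± 167 per kb, and it was above Elavl3, at 278 ± 65.0, in 7 of 8 libraries. Elavl3 and Rbfox3, at 227 ± 89.7, could not be ordered, with 4 of 8 libraries each way, and Rbfox2 stood at 180 ± 136. The lowest 4 were Elavl4 at 80.4 ± 63.0, Elavl2 at 75.2 ± 110.5, Nova1 at 74.8 ± 78.4 and Nova2 at 48.9 ± 46.1 per kb, each with an SD close to or above its distance from the next. The members lie on mouse chromosomes 16 (Rbfox1), 15 (Rbfox2), 11 (Rbfox3), 12 (Nova1), 7 (Nova2), 4 (Elavl2 and Elavl4), 9 (Elavl3), 14 (Mbnl2) and 2 (Celf2) in that annotation, so Elavl2 and Elavl4 are the 1 pair on a shared chromosome.

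Shares within a family do not depend on the size factor of a library, because it cancels. Rbfox1 made up 45.6%, 49.95%, 70.6% and 72.2% of the Rbfox per-kb sum in Recurring replicates 1 to 4, against 61.8%, 67.7%, 68.8% and 89.7% in Day 0 replicates 1 to 4. Per kb it was the leading Rbfox gene in all 8 libraries. By normalized count, not divided by length, Rbfox2 was above it in Recurring replicate 1, at 3966 against 3046. Rbfox3 was above it by that measure in Recurring replicate 2, at 1501 against 1456. Rbfox2 reached 32.1% in Recurring replicate 1 and Rbfox3 38.9% in Recurring replicate 2. In Recurring replicate 2 Rbfox1 was at its lowest of the 8 libraries. Rbfox3 was not at its highest there, which was 1962 in Recurring replicate 1. Recurring replicate 2 also had the highest interneuron marker sum, 11628, with reads of 8 of 9 markers and Vip at 0. The part of this in the share was not tested.

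The share of Nova1 in the Nova sum was 93.6%, 31.7%, 98.8% and 18.8% in Recurring cells, against 59.2%, 55.4%, 59.2% and 9.91% in Day 0 cells. Recurring libraries thus ran from mostly Nova1 to mostly Nova2, while Day 0 replicates 1 to 3 held both at similar levels. Several of these shares rested on few reads. Recurring replicate 1 held 91 reads of Nova1 and 6 of Nova2, and Recurring replicate 3 held 15 of Nova2. Recurring replicate 4 held 47 reads of Nova1 and Day 0 replicate 4 held 34. The uncertainty over reads in the Gm26821 and Gm33869 overlaps applies to the Nova shares too, and that in the Gm49318 overlap to the Elavl shares below. Elavl3 made up 48.6%, 61.1%, 62.5% and 57.6% of the neuronal Elavl sum in Recurring cells, against 53.2%, 74.4%, 98.1% and 84.3% in Day 0 cells. Day 0 replicates 2 to 4 were above every Recurring library and Day 0 replicate 1 was within their range, so the groups overlapped. The remainder was mostly Elavl2 in Recurring replicate 1, at 50.04%, and mostly Elavl4 in Recurring replicate 4, at 41.7%. These shares are given as descriptions, with no test.

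**Figure D4:**
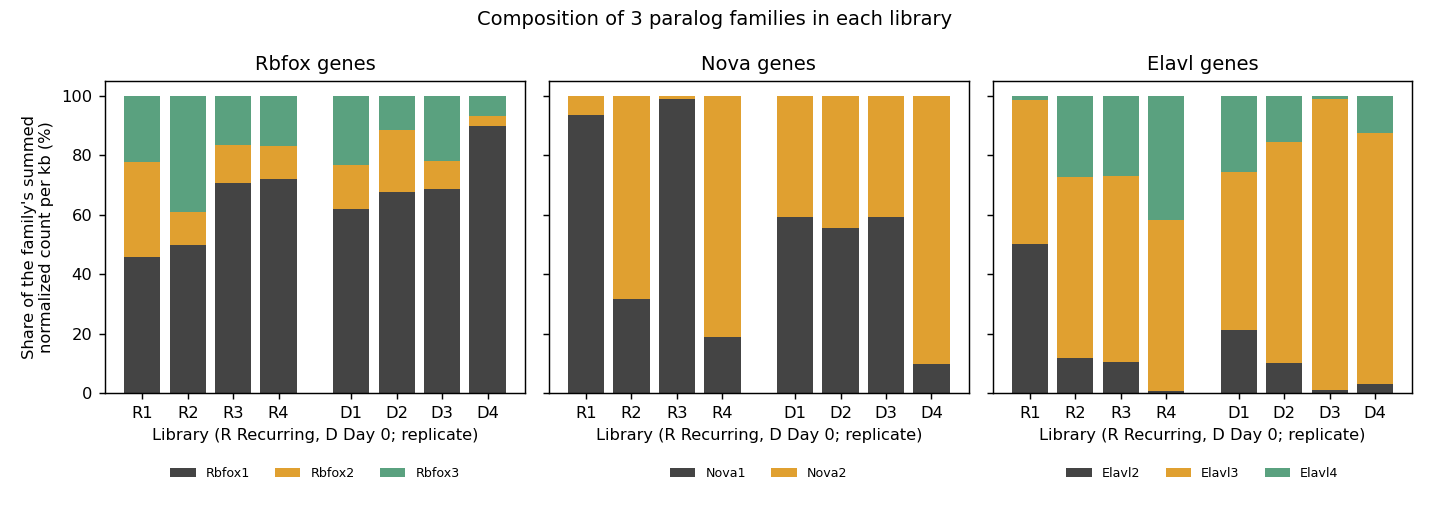
Share of each paralog in its family's summed normalized count per kb (%), in Recurring (R1 to R4) and Day 0 (D1 to D4) libraries, for the Rbfox, Nova and neuronal Elavl genes. Per kb of exons, with reads taken as counted over exons, Rbfox1 leads its family in all 8 libraries. The Nova1 share, which rests on few reads in some libraries, runs from 9.91% to 98.8%.

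The close paralogs outside the 10 genes numbered 8, of which 7 were tested: the mean in Recurring cells was higher for 3 and lower for 4, 0 passed the threshold, and the median difference was -0.20. Mbnl1, the paralog best known from muscle, stood at 1871, 4526, 2769 and 4443 in Recurring cells, against 1629.8, 2348, 1294 and 2836 in Day 0 cells, a difference of 0.72 (SE 0.44, 95% interval -0.22 to 1.66). In Recurring replicate 1, where Mbnl2 was at 946, Mbnl1 was at 1871, within its Day 0 range. Celf3, a Celf gene of the nervous system, differed by -0.76 (SE 0.55), and Elavl1, the broadly expressed HuR gene, by 1.49 (SE 1.11). The abundant Celf4 and Celf1 differed by 0.31 (SE 0.40) and -0.32 (SE 0.54). Per kb of exons Celf4, at 378 ± 142 (SD) over the 8 libraries, was the highest of these paralogs, below Celf2.

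Other splicing factors whose level or activity differs between tissues numbered 20, of which 15 were tested. The mean in Recurring cells was higher for 11 and lower for 4 of them, 0 passed the threshold, and the median difference was 0.17. Ptbp1, a repressor of neuronal exons that is shut down as neurons differentiate, was at 0, 0, 200.2 and 0 in Recurring cells, against 525, 15.2, 5.97 and 1157 in Day 0 cells. It was thus read in 1 of 4 Recurring and 4 of 4 Day 0 libraries, and its difference was -4.59 (SE 2.53), with an adjusted p of 0.981 by limma (0.0877 before adjustment). Tial1 and Tia1, genes of U-rich RNA-binding proteins that promote use of weak splice sites, were the abundant members and differed by 0.44 (SE 0.28) and 0.06 (SE 0.29). Khdrbs1, the Sam68 gene, differed by 2.81 (SE 2.07).

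All 21 hnRNP genes, of abundant nuclear RNA-binding proteins that often act as splicing repressors, were tested. In Recurring cells 7 means were higher and 14 lower, 0 passed the threshold, and the median difference was -0.13. Hnrnpa0 and Syncrip differed by -2.99 (SE 1.86) and -2.48 (SE 1.55). Hnrnpa0 was at 0, 144, 131 and 690 in Recurring cells, against 747, 215, 121 and 2721 in Day 0 cells. Syncrip was at 14.2, 12.9, 797 and 325 in Recurring cells, against 274, 136, 1042 and 1344 in Day 0 cells. The groups overlapped for both genes. The abundant Hnrnpu, a nuclear matrix-associated hnRNP, and Hnrnpa2b1 differed by -0.46 (SE 0.38) and -0.16 (SE 0.35).

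A list of 14 genes whose RNA is known to be spliced or otherwise regulated by these proteins was tested in full. Of its means 5 were higher and 9 lower in Recurring cells, 0 passed the threshold, and the median difference was -0.18. Camk2a, the plasticity kinase whose mRNA is carried into dendrites, was the 1 gene of the list at an unadjusted p under 0.05, at 0.0191 (adjusted p of 0.981 by limma), and the 1 whose groups did not overlap, where 3.62% and 2.41% of all tested genes met these criteria. Its difference was -1.09 (SE 0.42, 95% interval -1.98 to -0.20). Nrxn3, a synaptic adhesion gene with many alternative exons, differed by 0.73 (SE 0.43), and Dab1, of Reelin signalling and a Nova target, by -0.65 (SE 0.51). The abundant Snap25, of vesicle fusion, differed by 0.09 (SE 0.21, 95% interval -0.36 to 0.53).

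**Figure D5:**
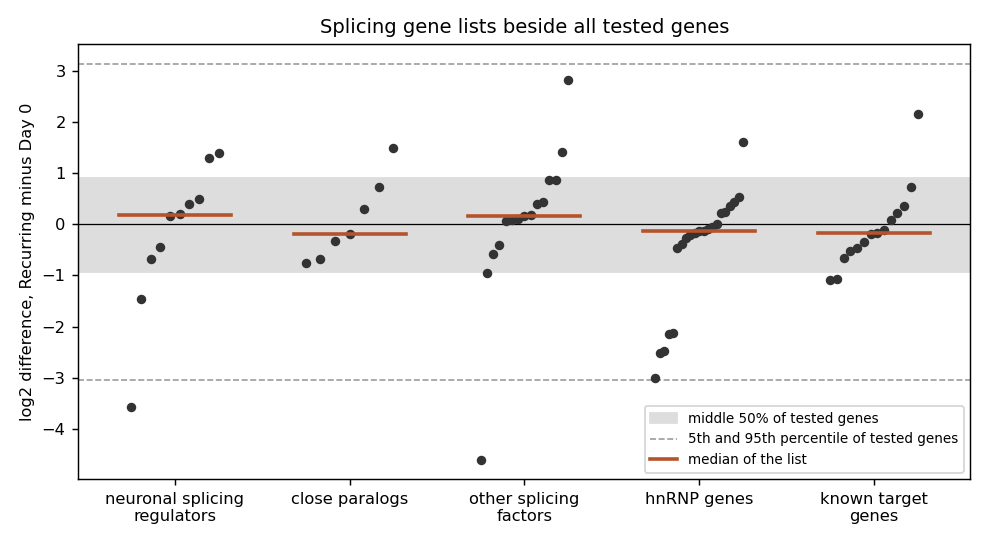
log2 difference, Recurring minus Day 0, of each tested gene (points) in the 5 lists, with the median of each list (bar), beside the middle 50% (grey band) and the 5th and 95th percentiles (dashed lines, -3.04 and 3.13) of all tested genes. The medians of the lists, -0.20 to 0.18, lie near that of all tested genes, 0.00500.

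Genes whose pattern over the 8 libraries was most like that of the 3 most abundant members were sought among 5604 tested genes with reads in every library, predicted genes left out, by Pearson's r of log2 values. The points share libraries and size factors, and with so many candidates and 8 points high values of r are common. Nearest to Celf2 were Cog2, Map2k1 and Gatad2b, with r of 0.947, 0.933 and 0.928 and Spearman's rho of 0.976, 0.905 and 0.929. Nearest to Rbfox1 were Sqle, Rnf20 and Tut1, with r of 0.993, 0.990 and 0.966 and rho of 0.976, 0.952 and 0.929. Nearest to Mbnl2 were Edrf1, Ndufb4 and Taf6, with r of 0.987, 0.987 and 0.985 and lower rho, of 0.643, 0.524 and 0.524. These 3 genes stood at normalized counts of 4.34, 5.57 and 1.86 in Recurring replicate 1, the library where Mbnl2 was lowest, and at 125 or more in every other library.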

How the data were processed

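The labels' protocols name a SMART-Seq mRNA LP kit for the nuclear RNA. The submitters' processing notes name STAR, HTSeq and GRCm39, with no versions. What the authors deposited is a signal, not a count: for each gene, whole reads times a constant of that gene, with library depth left uncorrected. The constants equal trimmed-mean-of-M-values factors for which genes took the role of libraries and Ptdss1 was the reference. Once they were divided out, 95910 of 95910 values above 0 were whole to within 0.1 read. For the regulators the constants ran from 0.934 (Nova2) to 2.70 (Elavl2).

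Library depth was corrected with size factors by the median-of-ratios method. Recurring was compared with Day 0 by limma 3.58.1 (R 4.3.3), with the variance allowed to follow the mean, on log2(normalized count + 1), a scale that understates changes of low genes. A gene was tested if 4 or more libraries reached a normalized count of 10, which 11078 genes did. The test was two-sided, with Benjamini-Hochberg adjustment and a threshold of 0.05. The fit and the read recovery were tested on simulated data. The spread simulated for the fit was a fixed value not taken from these libraries, so that test does not show how the fit performs at their spread. Nothing but the mouse names says that libraries are separate animals, so p-values measure the spread between these 8 libraries. Exonic lengths and chromosomes came from GENCODE vM21, of GRCm38, an earlier build than the authors'.

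The regulators, the gene lists (close paralogs, other splicing factors, hnRNP genes, known targets) and the 8 marker lists were chosen with earlier results of these data known. From each gene list the 3 tested genes with the smallest p and the 2 with the highest mean could be named. The alternatives were scaling to total reads, the deposited values as they stand, a pseudocount of 10, no filter, a filter of 10 or more in all 8 libraries, no variance trend, library weights, voom on the reads, and leaving out each library.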

Additional observations from a re-analysis of the deposited data

Results flagged for a closer look

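Among the 4 libraries of a group, 5 of 34 sets of values looked at had 1 library far from the other 3. In these it lay beyond Dixon's 95% critical value, which chance exceeds in about 1 in 20 sets of independent normal values. The sets were the log2 level of each regulator and its share in its family. Levels and shares come from the same counts, and shares of a family add up to a fixed total. The sets are thus not independent, and the count of 5 is no test against that rate. Elavl3 had a log2 level of 10.32 in Recurring replicate 4, below the other Recurring libraries. Elavl4 had a log2 level of 5.68 in Recurring replicate 1, below the other Recurring libraries. Mbnl2 had a log2 level of 12.755 in Day 0 replicate 3, above the other Day 0 libraries, which lay very close together. Nova1 made up 9.91% of the Nova sum in Day 0 replicate 4, below the other Day 0 libraries. Rbfox2 made up 32.1% of the Rbfox sum in Recurring replicate 1, above the other Recurring libraries.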

How the results depend on the processing

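Over 8 settings with all libraries and 8 with 1 library left out, 159 differences of the 10 regulators were computed; 156 kept their direction, 3 reversed, and 0 passed the adjusted threshold. Nova2 was not tested under the filter of 10 or more in all 8 libraries, which left fewer genes. The 3 reversals were of Rbfox2, at -0.13 with library weights, and over the left-out libraries its difference ran from -0.13 (without Recurring replicate 1) through -0.07 (without Day 0 replicate 4) to 0.79; the cause was not tested. The count of genes past the adjusted threshold was 2 without a variance trend, 1 in each direction and neither a regulator described here, and 0 under the other settings, voom included. At an unadjusted p under 0.05 the count was 401, but 650 with no filter, which tests more genes, and 185 with the stricter filter, which tests fewer. Nova2 had an unadjusted p under 0.05 in 6 of 7 settings with all libraries, with a highest p of 0.0579 on the deposited values as they stand. No paired analysis was made, because each title names its own mouse and the labels give no pairing between the groups. The replicate numbers used here follow the order of the samples within each group. The lowest read counts among the regulators were 6 for Nova2, in Recurring replicate 1, the library with the most reads, and 14 for Elavl4, in Day 0 replicate 3; counts this low carry a large counting error.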
